A study of Saccharomyces cerevisiae BY4741 with 16 samples.

Results

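The small (40S) subunit of the cytosolic ribosome of budding yeast, *Saccharomyces cerevisiae*, is built from proteins whose genes carry the symbols *RPS0* to *RPS31*. All 56 genes on the list of systematic names were found among 5218 genes with values, and all 56 were matched to the R64 gene table. They code for 32 proteins, 24 of them from a pair of near-identical genes, the copies A and B, and 8 from a single gene. Chromatin immunoprecipitation and sequencing measured H3K4me3 and H3K36me3, the trimethylated forms of lysine 4 and of lysine 36 of histone H3. Cells of strain BY4741 Anchor-Away were grown in YPD to log phase and given rapamycin at 1 ug/mL. They were MATa with the marker alleles his3D1, leu2D0 and ura3D0, and carried tor1D1 and fpr1D with the anchor RPL13-2xFKBP12-NATMX6. The groups were cells at 0, 20, 40 and 60 min after rapamycin, with 1 immunoprecipitated library per mark and time, so the 0 min cells carry the same alleles as the others. The 8 immunoprecipitated libraries have 8 input libraries beside them, and 25% of *Schizosaccharomyces pombe* cells went in as a spike-in control. The series asks how the marks stand once RNA polymerase II has left the nucleus, which in anchor-away cells is done by tying it, through rapamycin, to a ribosomal protein on its way to the cytoplasm. Here that anchor is Rpl13 of the large (60S) subunit, and the genotype label names no tagged polymerase subunit. A tor1 mutation and loss of Fpr1 are used in such strains so that rapamycin does not act through TOR. No vehicle-treated series of the same times is among the samples, so time after rapamycin and time in culture cannot be told apart.

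Ribosomal protein genes are among the most heavily transcribed genes of growing yeast, and their transcription depends on the factors Rap1, Fhl1, Ifh1 and Sfp1. H3K4me3 is laid down by the Set1 complex at the start of transcribed genes. H3K36me3 is laid down by Set2, which rides on elongating RNA polymerase II, and it marks gene bodies. Introns are rare in budding yeast, but many ribosomal protein genes have one near the start of the coding sequence.

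The values were the authors' deposited signal per gene, linear and without replicates, so no value here has an error and no p-value is given. Each library averages over a culture, and fewer cells with a mark cannot be told apart from less of the mark per cell. Over all 5218 genes the signal summed to 23958, 23092, 24034 and 21240 for H3K4me3 at 0, 20, 40 and 60 min, and to 6655, 4822, 5034 and 4172 for H3K36me3. A scale on which the lowest 5% of genes keep their 0 min median moved the change of the median gene at 60 min up by 0.30 for H3K4me3 and 0.61 for H3K36me3 (log2). Changes are therefore also given relative to the median gene, which is the log2 change minus the median log2 change of all genes past a filter on low levels. All 56 members passed that filter for H3K36me3 and 55 for H3K4me3. The copies of a pair are near-identical in sequence, and how their reads were divided is not stated, so values of single copies are uncertain.

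*RPS21A* (YKR057W, chromosome XI, 551657 to 552242) is 1 of the copies that code for a small protein of the subunit body. In H3K4me3 it stood apart from every other member before any comparison. Its H3K4me3 signal was 0.501, 0.434, 0.441 and 0.367 at 0, 20, 40 and 60 min, against 5.11, 4.75, 4.82 and 3.83 at its copy *RPS21B*. Its H3K36me3 signal was 0.493, 0.313, 0.269 and 0.218, against 2.09, 1.64, 1.83 and 1.05 at *RPS21B*. In that mark it was not alone, since *RPS28A* was lower at 0 and 20 min, with 0.333 and 0.244. Low signal was shared by its strand of the chromosome. From 200000 bp onwards on chromosome XI, 92 genes whose names end in W (transcribed from the Watson strand) had a median 0 min H3K4me3 of 1.52, and 92 genes of the opposite strand, with names in C, one of 3.96. On the other chromosomes the medians were 4.98 and 4.99. The 0 min H3K36me3 medians of that stretch were 0.374 for W and 1.78 for C genes, against 1.09 and 1.10 on the other chromosomes. In that mark the C genes of the stretch were thus higher than elsewhere, and the W genes lower. The part of the strand in the low values of *RPS21A* was not tested. The gene fell below the H3K4me3 filter but passed that of H3K36me3, and the members' medians and counts were also computed without it.

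Before rapamycin the 40S genes carried high H3K36me3 and ordinary H3K4me3. Median H3K36me3 at 0 min was 1.92 (quartiles 1.54 and 2.43) against 1.08 for all genes, and 52 of 56 members lay above the median gene, where 50% of all genes do. Median H3K4me3 was 4.65 (quartiles 4.26 and 5.30) against 4.91, and 23 members lay above the median gene, beside 50% of all genes. At 60 min the number above was 50 for H3K36me3 and 14 for H3K4me3, again beside 50% of all genes. Across the 56 members the 0 min levels of the marks had a Spearman's rho of 0.62, beside 0.73 over all genes, where both marks are read over the same genes.

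*RPS8A* and *RPS8B*, which code for a protein of the subunit body, stood high in both marks. H3K36me3 at 0, 20, 40 and 60 min was 4.81, 3.14, 3.30 and 2.97 at *RPS8A* and 3.48, 3.60, 3.04 and 2.999 at *RPS8B*. The 0 min value of *RPS8A* was the highest of all members, at percentile 99.5 of all genes. *RPS26A* and *RPS26B* code for a protein at the channel where mRNA leaves the subunit, and had H3K4me3 of 7.33, 7.71, 7.63 and 6.04 and of 7.11, 7.81, 7.75 and 6.60. *RPS22B*, a copy for a protein that binds ribosomal RNA in the body, had the highest mean H3K4me3, 7.89, 7.67, 9.02 and 7.64 at the 4 times. The low end of H3K36me3 held *RPS21A*, with the values above, and other members. *RPS28A* of the head protein Rps28 had 0.333, 0.244, 0.297 and 0.273, where its copy *RPS28B* had 1.74, 1.77, 1.35 and 1.05. *RPS14B*, a copy for a platform protein whose expression is known to be held down by the protein itself, had 0.513, 0.540, 0.540 and 0.296, where *RPS14A* had 2.03, 1.42, 1.34 and 1.10. *RPS29A*, for a small head protein, had 1.30, 0.847, 1.16 and 0.607. For *RPS28A* the other mark was less low, with 0 min H3K4me3 at percentile 20.1, against 10.1 for H3K36me3. For *RPS14B* the marks were close at 0 min, at percentiles 20.5 and 18.7, and their order varied. Its H3K4me3 was the lower mark at 20 min (26.5 against 29.3) and 40 min (17.7 against 28.4), and the higher at 60 min (22.2 against 16.0).

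**Figure D1:**
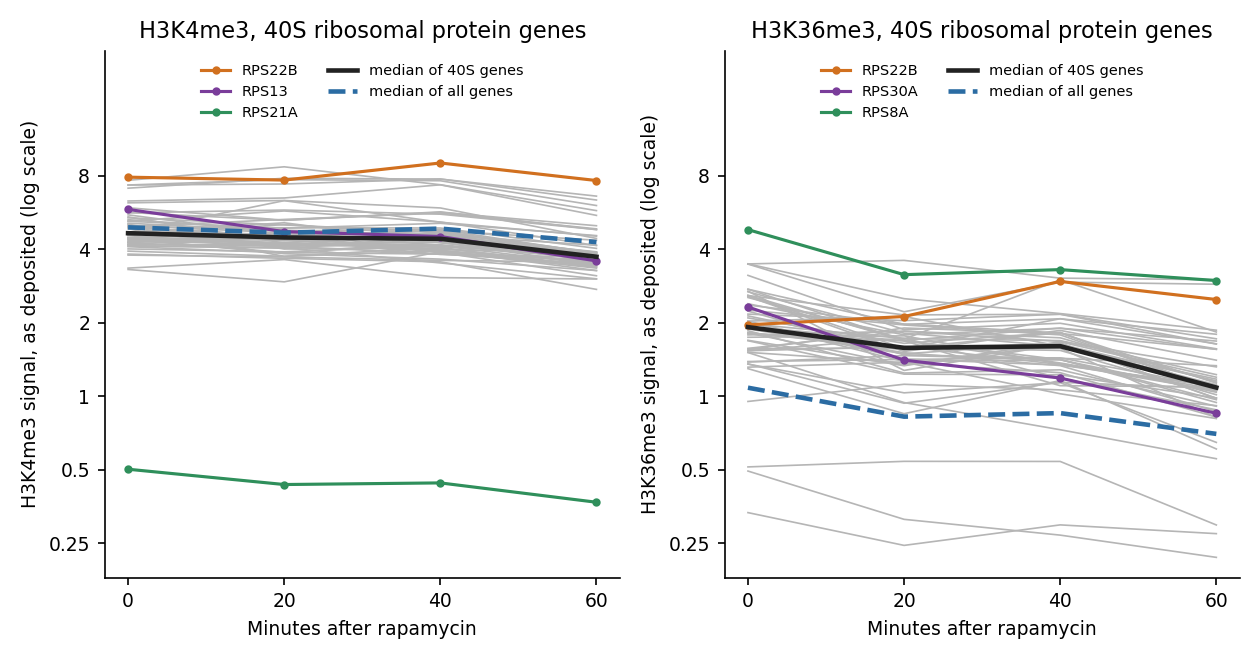
Signal of each 40S ribosomal protein gene (grey lines) at 0, 20, 40 and 60 min after rapamycin, on a log axis, for H3K4me3 (left) and H3K36me3 (right), with 1 library per point, the median of the 56 members (black), the median of all 5218 genes (dashed blue) and 3 members in colour. The member median lies close to the median gene for H3K4me3 and above it for H3K36me3 at every time, at 1.92 against 1.08 at 0 min and 1.08 against 0.700 at 60 min.

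At 60 min H3K36me3 of the 40S genes was lower than at 0 min at 54 of 56 members, as it was at 95.2% of the 4861 genes past the filter. The exceptions, *RPS10A* and *RPS22B*, were also the members that stood above 0 min at all 3 later times, as 2.94% of all genes did. Below 0 min at all 3 were 40 of 56, beside 79.6%, and lowest at 60 min 49 of 56, beside 72.9%. Levels went down at every step at 17 of 56, beside 28.3%. The median log2 change was -0.78 (quartiles -0.99 and -0.54), or 58.1% of the start, against -0.65 for all genes. With equal column totals it was -0.12, and scaled to the lowest 5% of genes -0.18. As deposited it lay at -0.14 relative to the median gene. A decrease of 1.5-fold or more was seen at 40 members, where the share over all genes was 56.9%, and an increase by that fold at 0 of 56, beside 0.432%. The 40 members became 4 with equal totals and 5 on the scale of the lowest 5%. The share of 56.9% holds for deposited values only, and none is given for the other scales. Set against the median gene, 4 members lay lower by that fold, where 7.53% of all genes did, and 3 lay higher, where 6.44% did. Members far from the median gene were thus about as frequent as over all genes. When each library was scaled to the lowest 5% of genes, 40 of 56 members were lower at 60 min, beside 54.7% of all genes.

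The 8 proteins made from a single gene allow values without a near-identical copy. *RPS3*, whose protein lines the channel where mRNA enters, had H3K36me3 of 2.67, 1.81, 1.60 and 1.17 at the 4 times, a change of -1.18 at 60 min (-0.53 relative to the median gene). *RPS13*, for a body protein, had 2.25, 1.96, 1.78 and 1.07, a change of -1.07, and *RPS15*, for a head protein near the decoding centre, 3.12, 1.87, 1.99 and 1.56, a change of -0.99. These had the largest decreases among the 8. *RPS2* was at the other end. It codes for a protein that acts in the accuracy of decoding, and its signal of 3.47, 2.22, 2.93 and 2.87 was lowest at 20 min and higher at 40 and 60 min, for a change of -0.27 and of 0.37 relative to the median gene. Between them lay *RPS31*, whose product is made as a fusion to ubiquitin (-0.81), *RPS12* of the beak of the head (-0.61) and *RPS20* of the head (-0.50).

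The lowest H3K36me3 changes of all members belonged to both copies for Rps30, a protein near the decoding centre. *RPS30A* (YLR287C-A, chromosome XII, 712537 to 713158) went from 2.32 to 0.850 through 1.40 and 1.19, and *RPS30B* (YOR182C, chromosome XV, 678191 to 678793) had 1.51, 0.941, 0.728 and 0.554. Their changes were -1.44 and -1.43, which left 36.7% of the start at each. Each time was lower than the one before at both copies. Next came *RPS6A* with 2.13, 1.56, 1.57 and 0.817 (-1.37), *RPS18B* with 2.59, 1.69, 1.37 and 1.07 (-1.27) and *RPS24B* with 2.69, 1.27, 1.63 and 1.15 (-1.21). Rps6 is known as a target of phosphorylation downstream of TOR, Rps18 belongs to the head and Rps24 to the body. At *RPS24B* most of the difference was there at 20 min, and the 40 min level was above that at 20 min.

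The highest H3K36me3 changes also included both copies of a pair. *RPS22B* (YLR367W, chromosome XII, 856442 to 857317) had 1.96, 2.12, 2.95 and 2.49, a change of 0.34 (0.99 relative to the median gene), and it was the 1 member whose span holds another annotated gene, the small nucleolar RNA gene *SNR44*. Reads of the marks over that gene cannot be told apart from those of *RPS22B*. Its copy *RPS22A* had 0.950, 1.12, 1.06 and 0.913, a change of -0.057 (0.59). *RPS10A*, for a protein of the beak, had 1.55, 1.90, 1.80 and 1.56 (0.0092), *RPS8B* a change of -0.21 and *RPS16A*, for a head protein whose tail reaches the P site, 1.57, 1.84, 1.68 and 1.32 (-0.25). At *RPS10A* and *RPS16A* the 20 min level was above the 0 min level, and at *RPS16A* the 60 min level was below it.

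The H3K36me3 change of the 40S genes was near that of the median gene from 0 to 20 min and below it from 20 to 60 min. From 0 to 20 min H3K36me3 was lower at 41 of 56 members, beside 88.4% of all genes, and the member median of -0.34, which turned to 0.12 with equal column totals, stood 0.070 above that of all genes. Lower by 1.5-fold or more at 20 min were 13 members, beside 31.5%, and higher by it 0, beside 0.514%. The 40 min library resembled that at 20 min, with a median of -0.32 from 0 min (0.078 with equal totals) and 47 of 56 lower, beside 84.3%. There 11 members were lower by 1.5-fold, beside 27.5%, and 1, *RPS22B*, was higher, beside 0.967%. From 20 to 60 min H3K36me3 was lower at 50 of 56, beside 79.4% of all genes. That median of -0.48 stood at -0.25 relative to the median gene, whose own change was -0.23. In this later interval 23 members were lower by 1.5-fold or more, where 11% of all genes were. The step from 40 to 60 min had a median of -0.40, with 56 of 56 members lower, beside 89.1% of all genes. The intervals meet in the 20 min library, so a high value there raises the first change and lowers the second.

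Members with an intron in the coding sequence had a larger late H3K36me3 decrease, by their medians, than members without one. Of the 56 genes, 36 have a coding intron and 20 do not, as a class taken from background knowledge. From 20 to 60 min, an interval chosen for this split after values were seen, the 36 had a median change of -0.63 (quartiles -0.75 and -0.44), with 35 lower and 21 lower by 1.5-fold or more. The 20 without an intron had a median of -0.20 (quartiles -0.31 and -0.045), with 15 lower and 2 by that fold. Over all genes 79.4% were lower and 11% by that fold. From 0 to 20 min the order was the other way round, with medians of -0.22 and -0.47. From 40 to 60 min, which leaves out the 20 min library, the medians were -0.48 and -0.31. The classes overlapped in every interval.

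Among the intron genes, *RPS0B*, for a body protein, had H3K36me3 of 2.03, 2.12, 1.60 and 1.06, with changes of 0.062 from 0 to 20 min and -0.98 from 20 to 60 min. *RPS23B*, for a protein at the decoding centre, had 1.53, 1.73, 1.18 and 0.878, with changes of 0.17 and -0.97. Both stood slightly above their start at 20 min and were lower at 60 min than at 40 min. *RPS25A* and *RPS25B*, copies without an intron for a head protein, had 1.36, 0.935, 1.14 and 1.08 and 2.58, 1.57, 2.07 and 1.64. There the lowest level came at 20 min, and the changes from 20 to 60 min were 0.20 and 0.061. Exceptions stood on both sides, and these examples were chosen after their values were seen. *RPS22B*, with an intron, was at 0.23 from 20 to 60 min, and *RPS28B*, without one, at -0.74.

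Introns lengthen a gene, and the classes differed in span as well. The median span was 853 bp with an intron and 411 bp without. Across the 56 members the change from 20 to 60 min had a rho of -0.47 with span, against -0.33 over 79 genes of the large subunit and -0.067 over 4775 genes. Between 586 and 768 bp, the stretch of spans that holds both classes, 10 members with an intron had a median of -0.55 and 7 without had one of -0.25. Their difference was -0.30, smaller than that of -0.43 over all members. From 0 to 20 min the same 10 and 7 members had medians of -0.43 and -0.42, so the early gap over all members was absent there. Members without an intron also began higher, at a median of 2.56 against 1.84. Outside the 40S genes the table allowed only a coarser split, since a span that is not a multiple of 3 points to an intron. By it, medians from 20 to 60 min were -0.46 and -0.33 for the large subunit (30 genes not a multiple of 3, and 49), and -0.29 and -0.22 for the remaining genes (86 and 4554). On the same coarse split the 40S medians were -0.63 (26 genes) and -0.26 (30 genes).

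**Figure D2:**
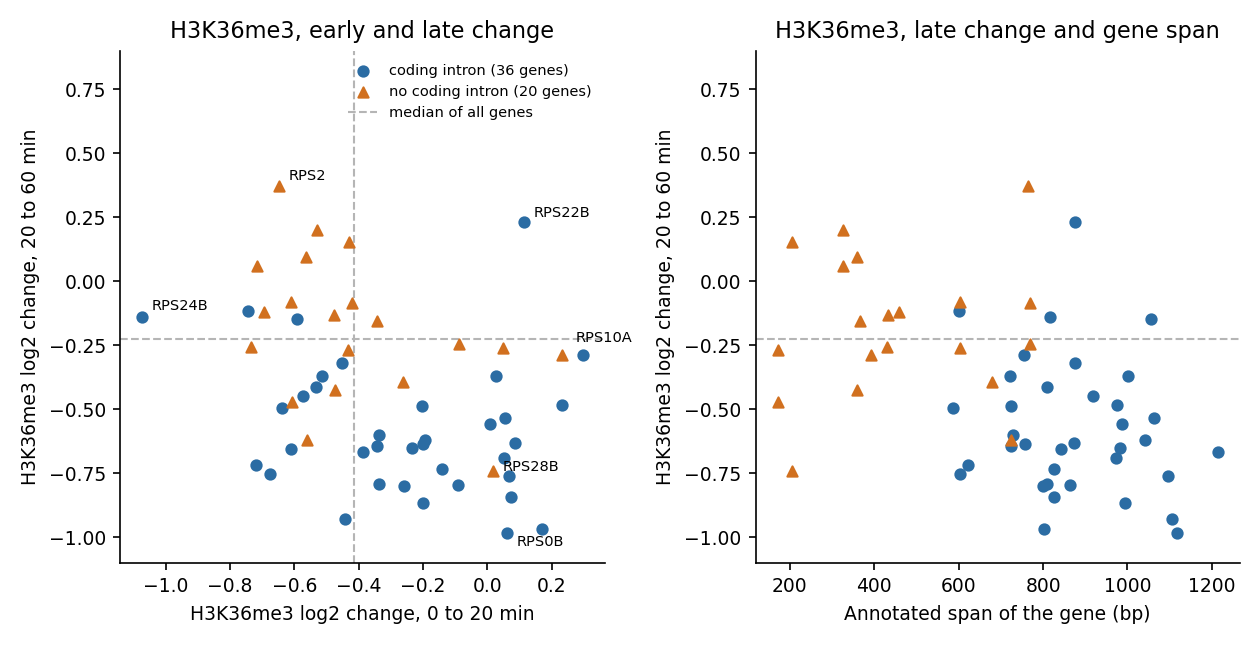
H3K36me3 log2 change from 20 to 60 min of the 56 members, against the change from 0 to 20 min (left) and against the annotated span in bp (right). Circles are the 36 genes with a coding intron and triangles the 20 without, and dashed lines are the medians of all genes. Most circles lie below the dashed line of the late change and the triangles scatter on both sides of it, with medians of -0.63 and -0.20, and the axes of the left panel share the 20 min library.

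H3K4me3 of the 40S genes differed little from 0 min until the last library. The member median was -0.040 at 20 min and -0.061 at 40 min (but 0.017 and 0.058 on the scale of the lowest 5% of genes, and 0.013 at 20 min with equal column totals), with 36 and 36 of 55 members lower, beside 67.4% and 50.7% of all genes. Those lower at 20 min were 27 with equal totals, beside 52.5% of all genes, and 26 on the scale of the lowest 5%, beside 51.4%. At 60 min the median was -0.27 (quartiles -0.41 and -0.18), or -0.085 relative to the median gene, and 54 of 55 were lower, beside 88.7%. The 60 min library was the lowest of the 4 at 54 of 55 members, beside 72.8% of all genes. All 55 were lower at 60 than at 40 min, as 96.4% of all genes were. At 25 of 55 all 3 later times were below 0 min, beside 41% of all genes, and at 0 of 55 all 3 were above it, beside 7.07%. Levels went down at every step at 15 of 55, beside 13.5%. Lower by 1.2-fold or more were 5 of 55 at 20 min, beside 7.69%, and 5 at 40 min, beside 2.36%. Higher by it were 0 at 40 min, beside 2.61%, and 0 at 60 min, beside 1.31%. At 60 min a decrease of 1.2-fold or more was seen at 30 members, where the share over all genes was 29.7%. Relative to the median gene, 10 of 55 lay lower by that fold, where 4.75% did over all genes, and none of these 55 lay higher by it, where 4.89% did. Scaled to the lowest 5% of genes, the member median at 60 min turned to 0.028 and 23 of 55 members were lower, beside 22.8% of all genes.

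*RPS13* had the lowest H3K4me3 change at 60 min, with 5.82, 4.72, 4.51 and 3.58 at the 4 times and a change of -0.69 (-0.51 relative to the median gene). Its levels were lower at each time than at the one before. *RPS27B* had 5.38, 5.03, 4.69 and 3.49 (-0.62), *RPS18B* 5.06, 4.01, 4.04 and 3.41 (-0.56) and *RPS7B* 4.95, 3.74, 4.06 and 3.37 (-0.55). Rps27 and Rps7 are body proteins that touch each other in the subunit, and *RPS18B* is also among the lowest members for H3K36me3. *RPS1A*, for a protein near the mRNA exit, had 5.53, 4.56, 4.76 and 3.77 (-0.55). At the other end, *RPS28A* had 3.30, 2.94, 3.91 and 3.34 and a change of 0.019, the 1 change above 0. *RPS25A* (-0.031), *RPS22B* (-0.046), *RPS20* (-0.052) and *RPS14A* (-0.094) followed. *RPS20* reached the highest value of its course at 20 min, with 4.69, 6.32, 5.16 and 4.52, and that change of 0.43 was the only one of 55 members to reach 1.2-fold above 0 min at 20 min, as 1.49% of all genes did. *RPS9A*, for a body protein, and *RPS14A* were low in H3K4me3 throughout, at 3.82, 3.67, 3.55 and 2.74 and 3.78, 3.72, 3.60 and 3.54.

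Among the other genes for single-copy proteins, *RPS2* had H3K4me3 of 6.19, 6.33, 5.90 and 4.43, a change of -0.48 that was the second lowest of these 8, although its H3K36me3 change was the highest of them. *RPS31* (-0.33), *RPS3* (-0.29), *RPS15* (-0.23) and *RPS12* (-0.18) lay between *RPS2* and *RPS20*. Over 55 members the 60 min changes of the marks had a rho of 0.19, beside 0.18 over all genes, and both are changes at the same genes. The intron classes had close H3K4me3 medians from 20 to 60 min, -0.23 with and -0.25 without an intron. Their 0 min H3K4me3 levels differed more, with medians of 4.42 and 5.37.

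**Figure D3:**
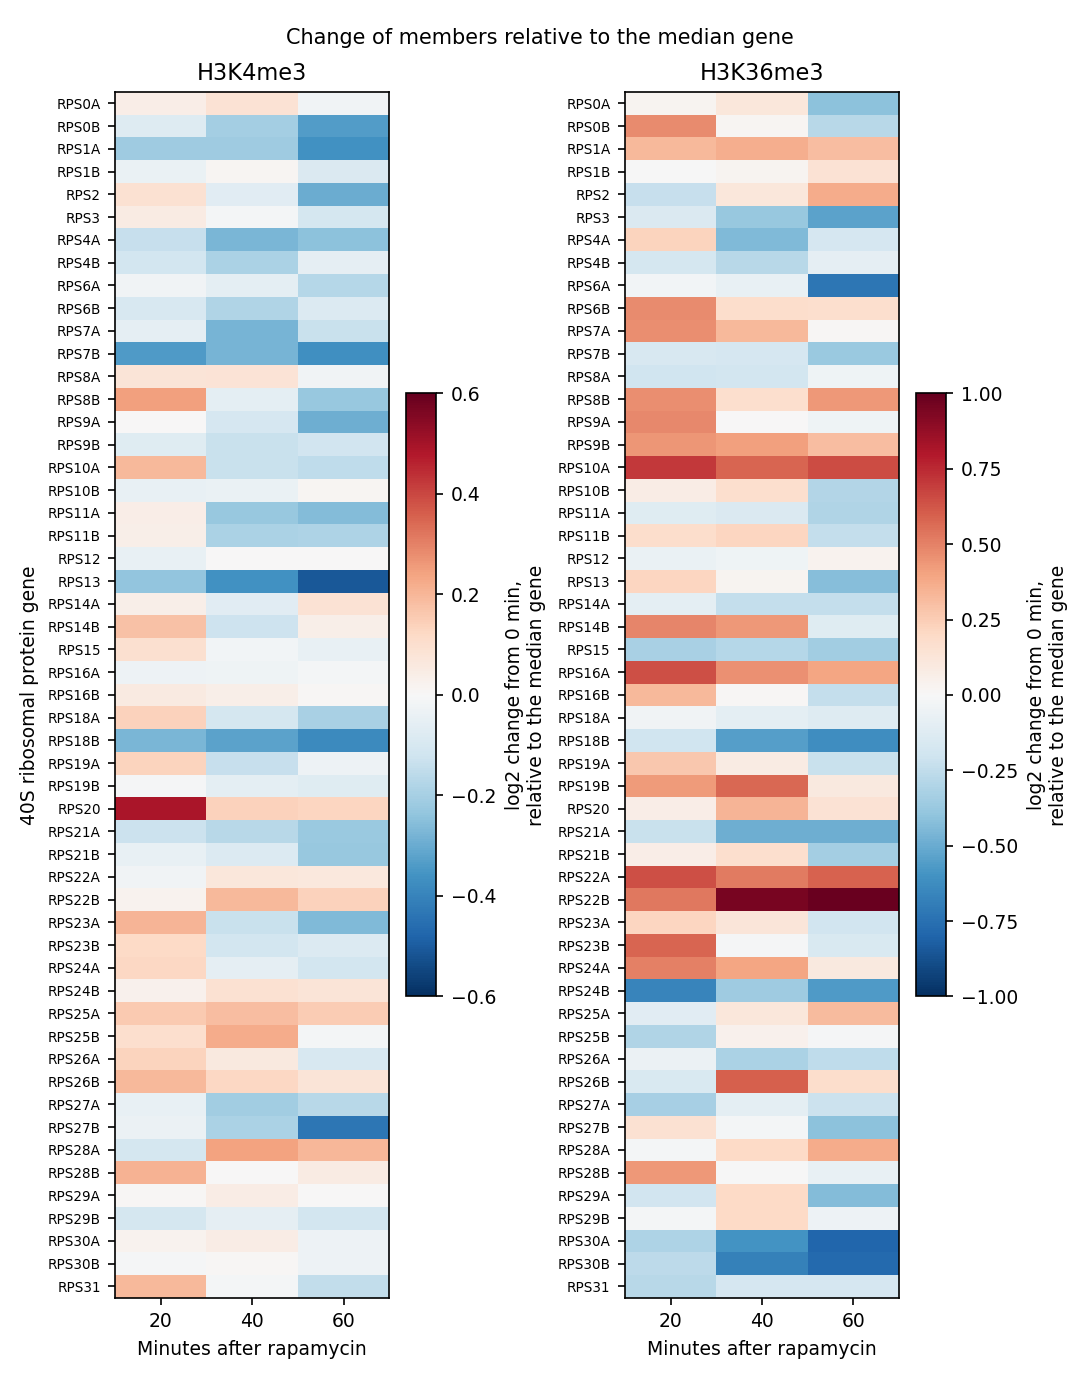
Log2 change from 0 min relative to the median gene (colour, red above and blue below it) at 20, 40 and 60 min for the members named at the rows, with H3K4me3 on the left and H3K36me3 on the right on separate colour scales, from 1 library per time. *RPS22B* is the reddest row for H3K36me3 at 60 min (0.99), *RPS30A* and *RPS30B* are the bluest (-0.79 and -0.78), and *RPS13* is the bluest for H3K4me3 (-0.51).

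In their change at 60 min the copies of a pair were about as far apart as members that are not copies of each other. For H3K36me3 at 60 min the median difference between copies was 0.37 over 24 pairs, and between other members it was 0.34. For H3K4me3 these were 0.17 over 23 pairs and 0.15. Copies differed by 1.5-fold or more at 4 of 24 pairs for H3K36me3, and by 1.2-fold or more at 4 of 23 for H3K4me3. Among 60S pairs the counts were 4 of 31 and 4 of 32. There copies were slightly closer than other members, with median differences of 0.32 and 0.37 for H3K36me3 and of 0.14 and 0.16 for H3K4me3. At 0 min the higher copy had a median of 1.38 times the H3K36me3 of the lower, and 1.13 times the H3K4me3.

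The widest H3K36me3 split of a 40S pair was that of Rps10, with changes of 0.0092 at *RPS10A* and -0.94 at *RPS10B*, whose levels were 1.88, 1.49, 1.65 and 0.979. Rps6 came next, with -1.37 at *RPS6A* and -0.48 at *RPS6B* (1.53, 1.60, 1.35 and 1.10). Then came Rps24 with -0.55 and -1.21 for the A and B copies, Rps16 with -0.25 and -0.89, and Rps18 with -0.77 and -1.27. The copies lay on opposite sides of the median gene for Rps10, Rps6, Rps24 and Rps16 and both below it for Rps18. Computed from 20 to 60 min, the differences A minus B were 0.31, -0.39, -0.49, 0.31 and 0.34 in this order, so that of Rps24 had the opposite sign. Among the wider splits for H3K4me3 were those of Rps0 (-0.21 and -0.52), Rps1 (-0.55 and -0.27), Rps27 (-0.35 and -0.62) and Rps7 (-0.32 and -0.55). These 4 proteins belong to the body, and none of them is among the 5 named for H3K36me3. The Rps30 copies were the closest of the 40S pairs that passed the filter, in both marks, with changes of -0.21 and -0.21 for H3K4me3.

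**Figure D4:**
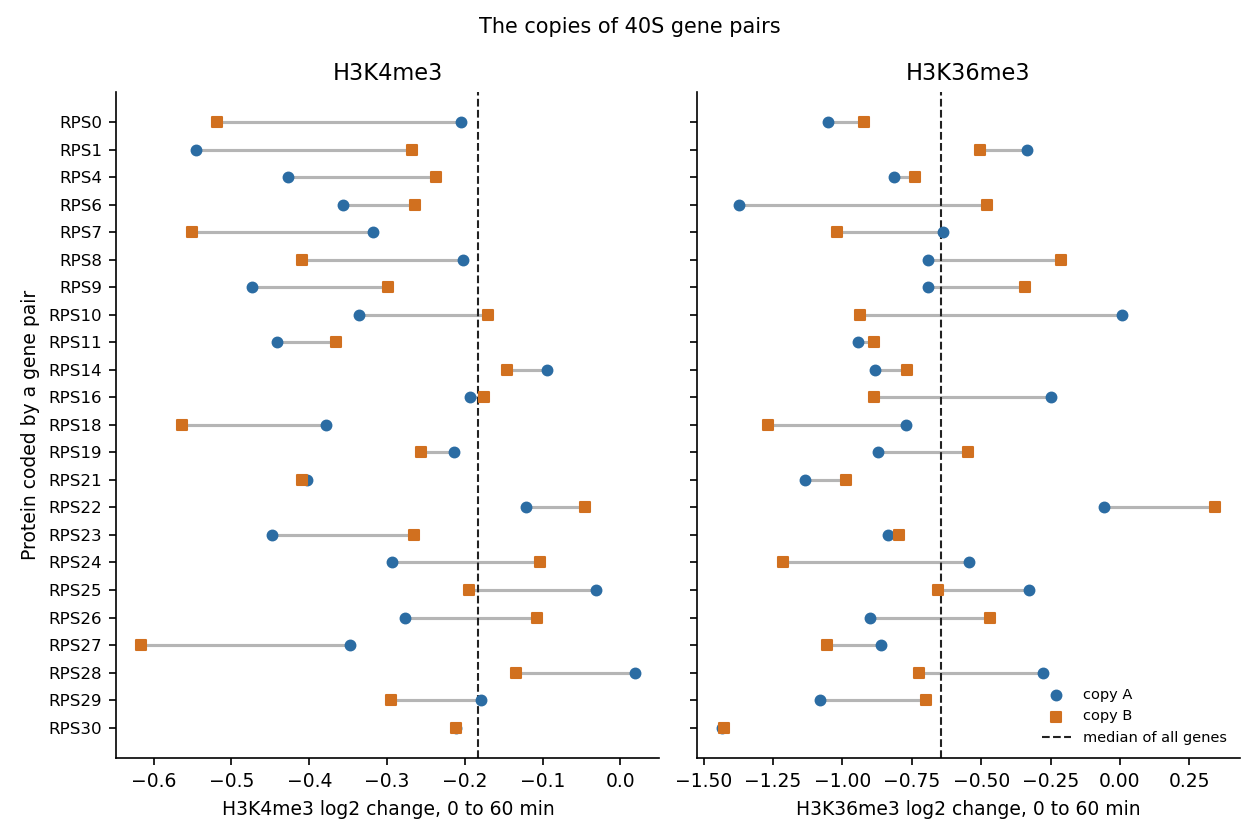
Log2 change from 0 to 60 min of copy A (blue circle) and copy B (orange square) of the gene pairs named at the rows, joined by a line, for H3K4me3 (left) and H3K36me3 (right) on axes of different range, with the median of all genes dashed and *RPS21A* drawn although it is below the H3K4me3 filter. Rps10 has the longest H3K36me3 line (0.0092 and -0.94) and the Rps30 copies nearly coincide (-1.44 and -1.43).

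Head and body genes were set side by side as a description. For H3K36me3 at 60 min the 22 genes of head proteins had a median change of -0.71 and the 34 of body and platform proteins -0.83. For H3K4me3 the medians were -0.20 (22 genes) and -0.30 (33 genes). Lower in H3K4me3 by 1.2-fold or more at 60 min were 8 of 22 head genes and 22 of 33 body and platform genes, beside 29.7% of all genes. Lower in H3K36me3 by 1.5-fold or more were 16 of 22 and 24 of 34, beside 56.9% of all genes. The 8 genes of single-copy proteins and the 48 genes in pairs had H3K36me3 medians of -0.74 and -0.78 from 0 to 60 min, and of -0.21 and -0.49 from 20 to 60 min. Single-copy genes began higher, at a median 0 min H3K36me3 of 2.71 against 1.84. Of these 8, only *RPS13* has a coding intron.

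Neighbouring ribosomal protein genes that point away from each other share the stretch between their starts. Among such cases, the nearest gene upstream of a member was *RPL13B* at *RPS16A* (720 bp away) and *RPL13A* at *RPS16B* (634 bp). It was *RPL39* at *RPS22A* (630 bp) and *RPP2A* at *RPS15* (719 bp). *RPL18B*, 626 bp upstream of *RPS19B*, points the same way as that gene, so the stretch there does not lie between their starts. The Rps16 genes are thus neighbours of the genes of the anchor, Rpl13, and the label does not say which copy is tagged. Upstream of *RPS16A*, H3K36me3 of *RPL13B* was 2.37 at 0 and 0.956 at 60 min, and upstream of *RPS16B* that of *RPL13A* was 1.95 and 0.939. Over the 56 members the median distance to the upstream neighbour was 630.5 bp, against 442 bp over 5114 genes.

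The genes of the large subunit give a comparison within the ribosome. At 60 min the 60S median H3K36me3 change was -0.81 (79 genes) against -0.78, and the H3K4me3 change -0.28 (80 genes) against -0.27. *RPL38* had the lowest 60S H3K36me3 change, -1.79, and *RPL1A* the highest, 0.096. From 20 to 60 min the H3K36me3 medians were -0.40 for 60S and -0.48 for 40S genes. *ASC1*, the gene of a further protein of the 40S head, had H3K36me3 of 3.76, 2.46, 2.77 and 2.41, a change of -0.64, and H3K4me3 of 5.72, 5.79, 6.37 and 5.11, a change of -0.16. Both changes lay within the quartiles of all genes.

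Genes for factors and chaperones that complete the 40S subunit had an H3K36me3 change close to that of the median gene. All 14 listed were lower in H3K36me3 at 60 min, beside 95.2% of all genes, with a median of -0.64, 0.0047 relative to the median gene, and 12 of 14 were lower in H3K4me3, beside 88.7%, with a median of -0.15. The kinase gene *RIO1* had the lowest change in both marks (-1.07 and -0.30). *TSR2*, for the chaperone of Rps26, had the highest H3K36me3 change (-0.16), and *FAP7*, for a factor that binds Rps14, the highest H3K4me3 change (0.056). *HRR25*, a casein kinase gene, had the highest mean H3K36me3 (3.21, 2.40, 2.06 and 2.07) and *LTV1*, for a factor of the head, the highest mean H3K4me3 (6.30, 7.27, 7.23 and 6.40). Of the listed regulators of ribosomal protein gene transcription, 7 were in the table and 6 passed the filter of each mark. Against the same shares over all genes, all 6 were lower in H3K36me3, with a median of -0.91, from *ABF1* (-1.28) to *RAP1* (-0.34), and *IFH1*, the highest in mean level, was at -1.14. For H3K4me3, 5 of 6 were lower, from *ABF1* (-0.56) to *RAP1* (0.090), and *FHL1*, the highest in mean level, was at -0.11. *ABF1* (YKL112W) lies on the strand and stretch of chromosome XI where signal was low, with H3K36me3 of 0.670, 0.405, 0.338 and 0.270.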

How the data were processed

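Chromatin immunoprecipitation libraries of H3K4me3 and H3K36me3 at 4 times were analysed, 1 per mark and time. The values are signal in a single table with a row per gene, as the authors deposited it. The tools Bowtie2, SAMtools and bedtools and the builds sacCer3 and ASM294v2 are named in the submitters' processing notes, which carry no version or role. Neither labels nor headers state the stretch of each gene that was read, or any division by input, length or spike-in. The column headings name no library type and were taken as the immunoprecipitated libraries, and 0 columns were left unassigned. Depth is unknown, so no counting interval is given. Copies of a pair may share reads.

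Of 5222 lines, 3 were blank and 1 held no values, which left 5218 genes. Of these, 5115 matched the R64 gene table (sacCer3 is R64), which gave coordinates and spans, while strand was read from the last letter of the systematic name. Log2 changes used a pseudocount of 1% of the 0 min median of the mark (0.0491 for H3K4me3 and 0.0108 for H3K36me3). Genes with a mean over the 4 times of at least 25% of the median of such means (1.17 and 0.219) entered comparisons of change, 4826 for H3K4me3 and 4861 for H3K36me3. Folds of 1.2 for H3K4me3 and 1.5 for H3K36me3 were used for counts. With 1 library per group nothing was tested, and a spread given here is between genes. The calculations used Python 3.11.15, numpy 2.4.6, pandas 2.3.3, scipy 1.17.1 and matplotlib 3.10.9, and were tested on simulated data with known changes.

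The members, lists and rules were chosen with earlier results of these data known. The genes named are the 8 members coded by 1 gene and, for each mark, the 5 lowest and 5 highest in change at 60 min and in mean level, with both copies of the 5 pairs that differ most in change. For other lists the highest mean level and the lowest and highest change are named. The 60S list holds symbols RPL or RPP with a number. *RPP1* was left out of it, since it codes for a subunit of RNase P, and *RPL14A* and *SFP1* were not used here. Coding introns were assigned from background knowledge of the genes. All 20 spans of members called intronless are multiples of 3, as are 10 of 36 spans of members with an intron. Some genes that meet these rules are not reported here by name or drawn in the plots that name genes. Promoter and protein sequences are not analysed here.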

Additional observations from a re-analysis of the deposited data

How the results depend on the processing

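Which scale is right for comparing libraries is not known, and it decided most counts on deposited values. With equal column totals the 40S median H3K36me3 change was 0.12, 0.078 and -0.12 at 20, 40 and 60 min. At 20 and 40 min 21 and 19 of 56 members were lower, beside 44.1% and 45.9% of all genes. Lower by 1.5-fold were 1, 1 and 4 members at the 3 times and higher by it 4, 4 and 3. With the lowest 5% of genes held level, the medians were -0.087, -0.088 and -0.18, with 1, 4 and 5 members lower by that fold and 2 higher at 60 min. For H3K4me3, equal totals gave a 60 min median of -0.096 and counts lower by 1.2-fold of 3 at 20 min and 11 at 60 min. The lowest 5% gave medians of 0.058 at 40 min and 0.028 at 60 min. There 19 and 23 of 55 members were lower, beside 17.6% and 22.8% of all genes. Lower by 1.2-fold on that scale were 3, 0 and 3 members at 20, 40 and 60 min, and higher 4 at 40 min and 2 at 60 min. These counts follow from the scaling itself. For the counts by fold on these scales no share over all genes is given, so they cannot be set beside all genes.

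Relative to the median gene the H3K36me3 step was 0.070 from 0 to 20 min and -0.13 from 40 to 60 min, and the H3K4me3 step from 40 to 60 min was -0.040. Without the 60 min library the median slope per hour was -0.48 for H3K36me3, against -0.72 with all 4, and -0.091 for H3K4me3, against -0.25. Among genes of the members' range of lengths the H3K4me3 median percentile was 49.5, 50.6 and 44.1 at 0, 20 and 40 min. With a pseudocount of 10% of the median, 2 H3K4me3 pairs differed by 1.2-fold, against 4. Taken from 20 to 60 min, 2 H3K36me3 pairs differed by 1.5-fold, against 4. That interval gave an H3K36me3 difference of 0.29 between single-copy and paired members, of -0.43 between members with and without an intron and of -0.079 between 40S and 60S genes, against 0.049, -0.24 and 0.027 from 0 to 60 min. The H3K4me3 intron difference was 0.026 there, against -0.085. Chosen after the data were seen, the H3K36me3 intron difference was -0.30 within the shared span and -0.17 from 40 to 60 min. Apart from what a shorter interval, fewer genes or a larger pseudocount do by construction, the cause was not tested.

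The remaining 170 values of medians, counts and differences moved by no more than 0.1 on the log2 scale, 5 percentile points or 1.5 times a count. Of these, 3 small ones took the other sign: the H3K4me3 median at 20 min, -0.040 as deposited, was 0.013 with equal totals, 0.017 with the lowest 5% held level and 0.022 relative to the median gene. Among the 170 were all 40 computed without *RPS21A*, a setting chosen after the data were seen, and all those without the filter or without a pseudocount. For named genes 428 values stayed within 0.1, of which 2 near 0 (*RPS12* and *RPS7A* in H3K36me3, with the larger pseudocount) took the other sign, and 2, both of *RPS21A* with the larger pseudocount, moved. No paired analysis was possible because each mark and time has 1 library and no replicate numbers. Unknown depth limits what low members such as *RPS28A* and *RPS14B* can show.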

Other observations

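The low signal of one strand of chromosome XI was not seen as a split on other chromosomes. The median 0 min signal of genes named W over that of genes named C was 0.47 for H3K4me3 and 0.34 for H3K36me3 on chromosome XI, and lay between 0.84 and 1.12 for H3K4me3 and between 0.76 and 1.17 for H3K36me3 on the other chromosomes. For H3K36me3 the C genes from 200000 bp on were also high, at 1.78 against 1.10 on other chromosomes, so that ratio does not come from low W genes alone. Within chromosome XI the 37 W genes before 200000 bp had a median 0 min H3K4me3 of 5.46 and the 41 C genes one of 4.51. Their H3K36me3 medians were 1.62 and 0.753. The position was chosen after the data were seen. Near *RPS21A*, the W genes *RHO4*, *GLG1* and *TIF1* had 0 min H3K4me3 of 2.98, 1.92 and 1.09, all above the 0.501 of *RPS21A*. The C genes *LAS1* and *CCP1* had 5.10 and 5.49. *RPS27A*, the other 40S gene on this chromosome, is also a W gene, starts at 158613 bp and had 0 min H3K4me3 of 4.43. The cause was not tested.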
